A study of Rattus norvegicus with 4 samples.

Results

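Genes with protein kinase symbols were compared between livers of rats given alpha-naphthylisothiocyanate (ANIT), a toxicant that injures bile duct cells and stops bile flow, and livers of vehicle controls. The genes were taken by their updated symbols, namely those starting with Mapk, Map2k, Map3k, Map4k, Cdk, Prk, Camk, Rps6k, Grk, Sgk, Stk, Jak, Akt, Pik3, Csnk or Abl, plus Syk, Src and Fyn, with Cdk1 left out. Lyn, also sought, was not among the named genes. This gave 64 genes on 92 probes, out of 958 named genes on 1432 probes of a glass cDNA array. By textbook knowledge, 53 of the 64 encode protein kinases. The other 11 are regulatory subunits (Prkab1, Prkag1, Prkar1a, Prkar2a, Pik3r2 and Csnk2b), the lipid kinase Pik3c3, the scaffold Mapk8ip2, the phosphatase Cdkn3, the Akt-binding protein Aktip and the pseudokinase Camkv.

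One group received ANIT intraperitoneally at 75 mg/kg in olive oil and the other received olive oil alone. All animals were male Sprague-Dawley rats whose livers were taken 18 h after injection. RNA of 3 rats per treatment was pooled, and this single pair of pools was hybridised to 4 arrays, with the dyes exchanged: arrays 1 and 3 carried ANIT RNA in Cy5, arrays 2 and 4 in Cy3. The treatment therefore has 1 replicate, no test between treatments is possible, and errors are SDs between arrays with like dyes, pooled across the dye orientations (n = 4 arrays), and cover hybridisation alone.

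Protein kinases transfer phosphate to proteins and work in chains. In the MAP kinase chains, an upstream kinase activates a MAP kinase kinase, which activates a MAP kinase such as ERK, JNK or p38 in response to growth factors, cytokines or cell stress. Other families answer to second messengers, among them cyclic AMP (protein kinase A), calcium (calmodulin-dependent kinases), lipids (protein kinase C, PI3 kinase and Akt) and falling energy charge (AMP-activated kinase). Their activity is set largely by phosphorylation and binding partners, which an RNA measurement does not see.

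Of the 64 genes, 1 was higher by 1.5-fold or more in the ANIT pool and kept its sign on every array, Mapk14, and 0 were lower by that much. Over all 958 genes these shares were 3.55% and 2.19% (5.74% either way). The share of kinase genes called was 1.56%, and a single gene is too few to tell that share from the others. At 2-fold the counts were 0 and 0, against 1.25% and 1.15% of all genes. The median log2 ratio was -0.031 over the kinase genes and -0.04 over all genes. Ratios within 0.25 of zero on the log2 scale were held by 56 of 64 kinase genes (87.5%) and 748 of 958 genes (78.1%). The 8 outside that range were Mapk14, Map2k2, Cdkl3, Prkar1a and Prkar2a above, and Sgk1, Csnk1g3 and Prkab1 below.

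Ratios are given as ANIT over olive oil, the likely direction, because ANIT is in the titles and forms channel 2; neither direction nor log base is stated, and base 2 was assumed. With every sign turned, 0 kinase genes would be higher and 1 lower. Read instead as an unturned dye ratio, the table would put 1 higher and 4 lower at 1.5-fold, against 13.0% and 6.99% of all genes. The 1 higher would then be Csnk1g3 (0.71), and Mapk14 (0.56, with both signs among its arrays) would lose its call. The array medians as deposited were -0.53, 0.85, -0.53 and 0.83 for arrays 1 to 4, and each array was centred on its median. Centring lowered every ratio by 0.15 on average over the arrays.

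The difference between dye orientations was large for most kinase genes. As deposited, ANIT in Cy5 less ANIT in Cy3 ran from -2.86 for Camkk1 to 0.055 for Csnk1g3, with a median of -1.49 over the kinase genes and -1.24 over all genes. Of the 64, 41 lay below the median of all genes. Calls at 1.5-fold were rarer there, with 4 higher and 3 lower of 479 genes. At or above that median they were 30 and 18 of 479, and Mapk14 (-0.24) was among those. Below that median the SD of the mean ratios over genes was 0.15 for kinase genes and 0.17 for all genes, while above it these were 0.26 and 0.46. Because centring on 1 value per array leaves this difference in place, a second baseline was also used, in which each probe was set against the median of the 200 probes nearest to it in dye difference. This makes the dye orientations of every gene nearly equal by construction, so agreement of its arrays across dyes, and the sign rule with it, shows nothing about consistency. On this dye-matched baseline Mapk14 was again the 1 kinase gene at 1.5-fold, against 3.44% of all genes higher and 3.24% lower (6.68% either way), and the kinase median was 0.0088.

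**Figure D1:**
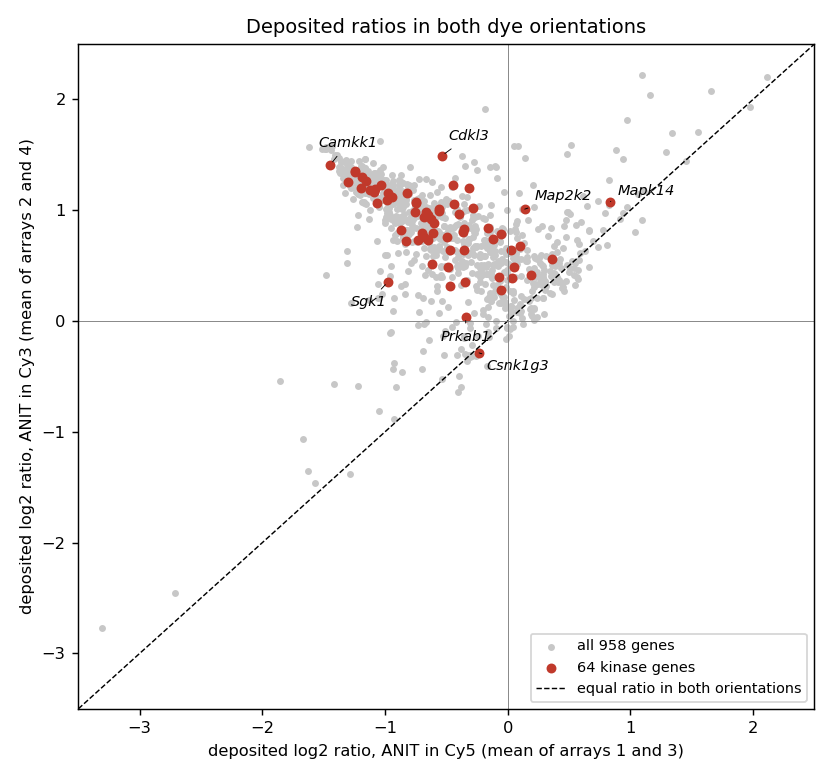
Deposited log2 ratios of each gene with ANIT in Cy5 (x axis, mean of arrays 1 and 3) and with ANIT in Cy3 (y axis, mean of arrays 2 and 4); grey points are all 958 genes and red points the 64 kinase genes. Most kinase genes lie far from the dashed line of equal ratios, up to a dye difference of -2.86 for Camkk1, while Mapk14 and Csnk1g3 lie close to it with -0.24 and 0.055.

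**Figure D2:**
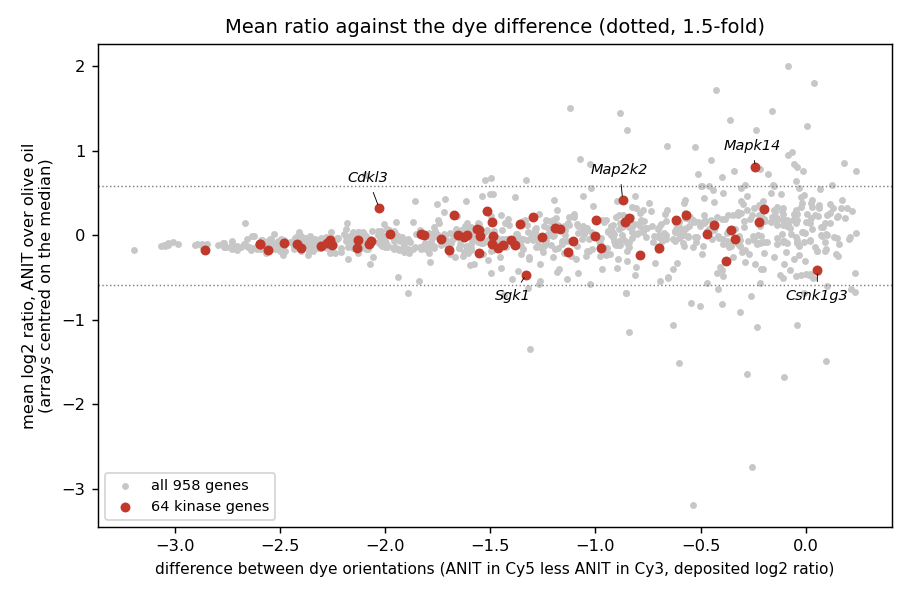
Mean log2 ratio of each gene after centring (y axis) against the deposited difference between dye orientations (x axis); dotted lines mark 1.5-fold, grey points all 958 genes and red points the 64 kinase genes. The spread of the mean ratios is narrow on the left and wide on the right, and Mapk14, at 0.81, is the kinase gene above the upper line.

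Mapk14 encodes p38 alpha, the main stress-activated p38 kinase of liver. As deposited, its log2 ratio was 0.89 on array 1, 1.19 on array 2, 0.79 on array 3 and 0.96 on array 4. Arrays 2 and 4 had medians of 0.85 and 0.83, so a value above zero there is common. After centring the values were 1.42, 0.35, 1.32 and 0.13, with a mean of 0.81 ± 0.12 (1.75-fold), which ranked 21 from the top of 958 genes. Within dye orientation the mean was 1.37 with ANIT in Cy5 and 0.24 with ANIT in Cy3, the latter below 1.5-fold. The dye-matched mean was 0.70 ± 0.13 (1.62-fold). With any array left out in turn the mean stayed between 0.75 and 0.86. Both dye orientations remain in each of these means, so that range does not cover the gap between orientations. Mapk14 rested on 1 probe, so no second probe bears on it.

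The p38 kinases next to it and their substrates had smaller ratios. Mapk12, the p38 gamma gene, had 0.15 ± 0.11 and 0.06 on the dye-matched baseline. The p38-activated kinase genes Mapkapk2, Mapkapk3 and Mapkapk5 had 0.18 ± 0.089, -0.062 ± 0.038 and 0.13 ± 0.026. Mapkapk5 (PRAK) was even across arrays, at 0.12, 0.11, 0.15 and 0.15. Mapkapk2 (MK2) lay above zero on arrays 1 and 3 (0.49 and 0.62) and below it on arrays 2 and 4 (-0.25 and -0.14). Map2k3 and Map2k6, the usual activators of p38, were not among the 64 genes.

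Map2k2, which encodes MEK2, an activator of the ERK kinases, was second at 0.42 ± 0.059 (1.34-fold), with centred values of 0.73, 0.17, 0.61 and 0.18. All 4 centred arrays were above zero, and the dye-matched mean was 0.36 ± 0.052. Its partner Map2k1 (MEK1) had 0.21 ± 0.068, with array 2 at -0.12 and array 4 at 0.013. Both stayed above zero on all 4 baselines tried, which were the median, none, Hprt1 with Actb, and the dye-matched one. Mapk6, the atypical ERK3, had -0.15 ± 0.24, an SD larger than the ratio.

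The JNK genes had small ratios. Mapk9 (JNK2) had 0.24 ± 0.033, and its probes, which carry the same clone, gave 0.22 and 0.26. Its centred arrays split by dye, at 0.66 and 0.61 with ANIT in Cy5 and -0.15 and -0.18 with ANIT in Cy3. The dye-matched mean was 0.15. Mapk8 (JNK1) had -0.023 ± 0.038, and Mapk8ip2, a scaffold of the JNK chain, had -0.10 ± 0.12. At the top of the chains, Map3k1 and Map3k6 had -0.039 and 0.011, and Map4k1 and Map4k3 had -0.098 and 0.057. Over the 15 genes of the MAP kinase chains, 9 ratios were above zero and 6 below, with a median of 0.057, which turned to -0.013 with Hprt1 and Actb as the baseline.

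**Figure D3:**
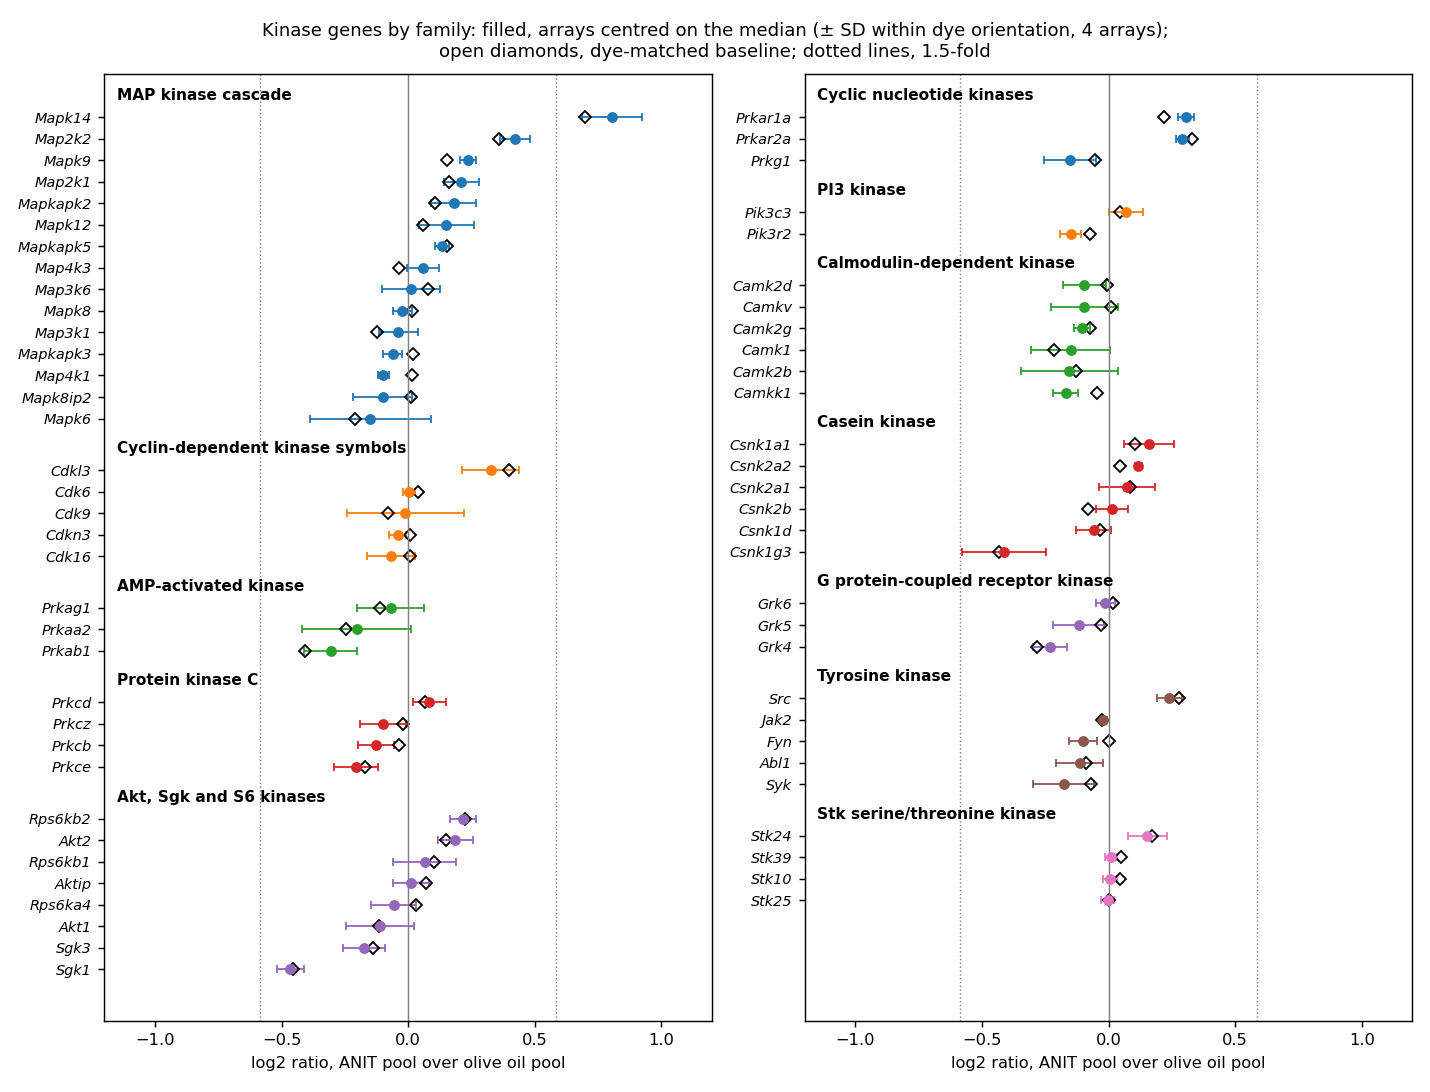
Mean log2 ratio of each of the 64 kinase genes (x axis), listed by family; filled circles with bars give the mean after centring on the array median ± SD within dye orientation (n = 4 arrays), open diamonds the dye-matched baseline, and dotted lines 1.5-fold. Mapk14 (0.81) is the only gene past a dotted line, and Sgk1 (-0.47) and Csnk1g3 (-0.41) are the lowest.

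The lowest ratio belonged to Sgk1, a kinase induced by glucocorticoids and by cell shrinkage that acts on ion transport. Its gene mean was -0.47 ± 0.053 (1.38-fold lower), with centred values of -0.44, -0.54, -0.45 and -0.43 that were nearly equal on all arrays. The 4 probes behind this mean disagreed. They gave -0.89 ± 0.16, -0.66 ± 0.16, -0.28 ± 0.10 and -0.033 ± 0.17, so the largest of their 6 pairwise differences was 0.85. Over all named genes, 678 pairs of probes from different clones of 1 gene differed by a median of 0.14, with a 90th percentile of 0.54 and a largest difference of 2.51. The first pair had means past 1.5-fold lower and were below zero on every array, so counting single probes gave 2 lower and 1 higher of 92 kinase probes, against 2.65% and 3.35% of all 1432. The probe with the lowest ratio had -0.66, -1.34, -0.44 and -1.11 on arrays 1 to 4, and the one with the highest had 0.044, -0.22, -0.061 and 0.10. The probe at -0.28 had -0.50, -0.11, -0.59 and 0.072, the opposite dye split to the lowest. The near equality of the gene values across arrays and their small SD thus arise from averaging unlike probes. Whether every probe reports Sgk1 was not tested.

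The promoter stretches of Mapk14 and Sgk1, the ends of the range, are shown to set their base make-up side by side. They are the 250 bases before each RefSeq start (build GRCr8), written 5′ to 3′ along the gene, with capitals marking motif matches on either strand. The motifs searched were the GC box, spelled GGGCGG, and the CCAAT box, spelled as its name. The TATA box was spelled TATAAA and the cyclic AMP response element (CRE) TGACGTCA. The AP-1 motif was spelled TGANTCA and the motif of STAT factors TTCNNNGAA. None of these spellings contains another.
Mapk14 (chr20:6751109-6751358, plus strand): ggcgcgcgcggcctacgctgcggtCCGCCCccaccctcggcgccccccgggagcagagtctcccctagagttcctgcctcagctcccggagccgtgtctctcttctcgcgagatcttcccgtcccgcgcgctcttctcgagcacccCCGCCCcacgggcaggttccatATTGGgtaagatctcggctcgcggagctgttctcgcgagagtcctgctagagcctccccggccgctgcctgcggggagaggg
Sgk1 (chr1:24807232-24807481, minus strand): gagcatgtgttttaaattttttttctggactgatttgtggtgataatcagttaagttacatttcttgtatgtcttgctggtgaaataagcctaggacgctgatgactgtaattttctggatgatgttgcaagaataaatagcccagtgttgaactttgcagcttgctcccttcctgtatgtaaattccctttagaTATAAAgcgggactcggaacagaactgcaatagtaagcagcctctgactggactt
The Mapk14 stretch held 2 GC boxes and 1 CCAAT match with no TATA box, whereas the Sgk1 stretch held 1 TATA box and neither of the others. The CRE, AP-1 and STAT letters had 0 matches in both, which says nothing of those factors outside this window. Among the 55 kinase genes with a promoter in the table, 39 (70.9%) held a GC box and 4 (7.27%) a TATA box. The shares were 58.1% and 12.0% over 783 measured genes and 32.4% and 13.1% over all 27457 promoters. For CCAAT the shares were 21.8%, 34.2% and 34.3% in the same order. For the CRE letters 0 of 55 kinase promoters matched (2.30% of measured genes and 1.70% of all). For STAT 0 matched (5.36% and 7.52%) and for AP-1 1 (5.62% and 6.36%).

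Of the kinases related to Sgk1 in the lipid-driven chains, Sgk3 had -0.17 ± 0.083. Akt1 and Akt2, which carry the insulin signal, had -0.11 ± 0.13 and 0.19 ± 0.07. All 4 probe means of Akt2 were above zero, from 0.046 to 0.29, and both of Akt1 were below it, at -0.067 and -0.16. Within dye orientation, however, Akt2 had 0.37 with ANIT in Cy5 and 0.0017 with ANIT in Cy3, while Akt1 had -0.12 and -0.10. The S6 kinase genes Rps6kb1 and Rps6kb2 had 0.065 ± 0.12 and 0.22 ± 0.052, and Rps6kb2 was above zero on each array (0.20, 0.19, 0.30 and 0.18). Rps6ka4 (MSK2) had -0.057 and Aktip 0.01. The PI3 kinase genes Pik3c3 and Pik3r2 had 0.07 and -0.15. The family of Akt, Sgk and S6 kinases had a median of -0.023 over 8 genes, with 4 on each side of zero, and 0.052 on the dye-matched baseline.

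**Figure D4:**
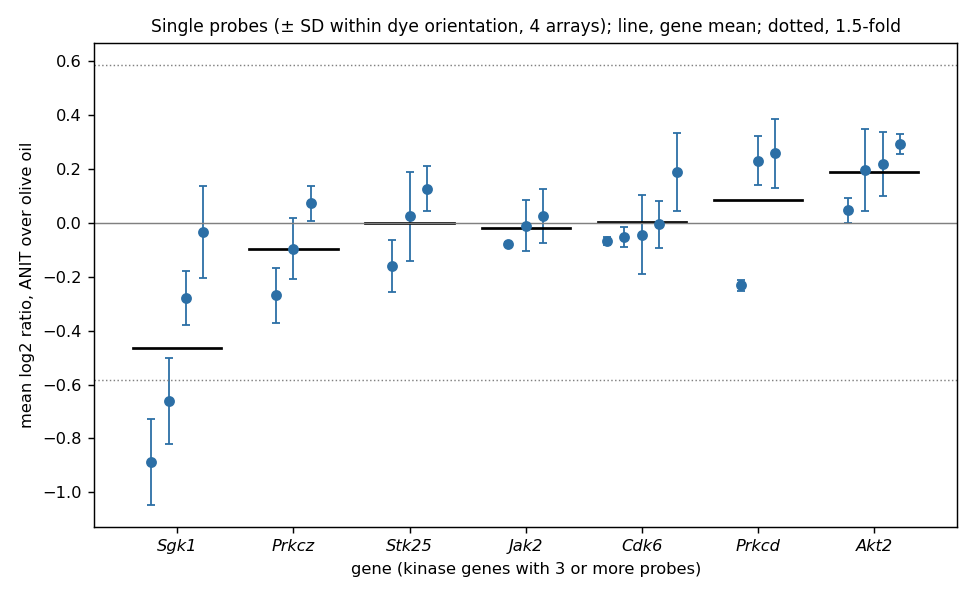
Mean log2 ratio (y axis) of every probe of the 7 kinase genes with 3 or more probes; points with bars are probes ± SD within dye orientation (n = 4 arrays), black lines the gene means and dotted lines 1.5-fold. The Sgk1 probes spread from -0.89 to -0.033, while those of Jak2 lie between -0.079 and 0.026. Each point averages both dye orientations, and the Jak2 probes differ by up to 1.62 in dye difference.

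The other genes with several probes spread less than Sgk1. Prkcd, the protein kinase C delta gene, had 0.084 as the mean of -0.23, 0.23 and 0.26, and its probe with the smallest SD was the one at -0.23. Prkcz, an atypical protein kinase C gene, had -0.098 over probes at -0.27, -0.096 and 0.072, and the first pair carry the same clone. Cdk6, a cell cycle kinase of the first growth phase, had 0.0033 over 5 probes from -0.067 to 0.19. Stk25 had -0.0032 over 3 probes from -0.16 to 0.13, and Jak2, which passes on growth hormone and cytokine signals, had -0.022 ± 0.015. The highest Jak2 probe ran 0.67, -0.60, 0.51 and -0.49 on arrays 1 to 4, while the lowest ran -0.23, 0.077, -0.23 and 0.070. The small SD of the Jak2 mean therefore does not mean like probes. Over all named genes, probes of the same clone differed by a median of 0.088 (21 pairs).

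Both regulatory subunit genes of protein kinase A lay above zero. Prkar2a had 0.29 ± 0.027 with centred values of 0.24, 0.35, 0.19 and 0.38, and 0.33 ± 0.042 on the dye-matched baseline. Prkar1a had 0.31 ± 0.03, but its centred arrays split by dye, at 0.87 and 0.91 with ANIT in Cy5 and at -0.30 and -0.26 with ANIT in Cy3. The dye-matched mean was 0.22. The cyclic GMP kinase gene Prkg1 had -0.15 ± 0.10. No catalytic subunit of protein kinase A was among the 64 genes.

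The 3 genes of AMP-activated kinase, the sensor of cellular energy charge, lay below zero, although Prkag1 had 0.083 without centring. Prkab1, the beta 1 subunit that holds the complex together, had -0.31 ± 0.11 and -0.41 ± 0.082 on the dye-matched baseline. After plain centring it split by dye, at 0.22 and 0.16 with ANIT in Cy5 against -0.90 and -0.70 with ANIT in Cy3. The catalytic subunit gene Prkaa2 had -0.20 ± 0.21 and the gamma subunit gene Prkag1 -0.07 ± 0.13, so their spread was as large as their ratios. The median of the family was -0.20. Without centring it was -0.05, and with the arrays of ANIT in Cy5 alone 0.06.

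Casein kinases are constitutively active kinases with many substrates. Csnk1g3, a membrane-bound casein kinase 1, had the second lowest ratio of the 64 at -0.41 ± 0.17 (1.33-fold lower). Its deposited values were -0.22, -0.44, -0.25 and -0.13, and it had the smallest dye difference of the kinase genes. After centring it split by dye, at 0.32 and 0.28 with ANIT in Cy5 and -1.29 and -0.96 with ANIT in Cy3, and its dye-matched mean was -0.43. The 5 other casein kinase genes lay between -0.059 for Csnk1d and 0.16 for Csnk1a1. The catalytic subunit genes of casein kinase 2, Csnk2a1 and Csnk2a2, had 0.073 and 0.12, and the regulatory Csnk2b 0.014.

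All 6 calmodulin-dependent kinase genes had ratios between -0.17 and -0.095, from Camkk1 to Camk2d, but their median was 0.026 without centring. On the dye-matched baseline they ran from -0.22 to 0.0093, with a median of -0.061 in place of -0.13. Their median dye difference was -1.88, further from zero than that of all genes. Camk2b, Camk2d and Camk2g, the calcium-activated kinase II isoforms measured, had -0.15, -0.095 and -0.10. Camk1 had -0.15 ± 0.16, and Camkv, a kinase-like protein without activity, -0.096.

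The protein kinase C genes had a median of -0.11, which was -0.028 on the dye-matched baseline and 0.04 without centring. Prkce, a calcium-independent isoform, was the lowest at -0.21 ± 0.086 and was below zero on every centred array (-0.37, -0.16, -0.23 and -0.069). Prkcb, the isoform of many blood cells, had -0.13 ± 0.072. Of the G protein-coupled receptor kinases, which switch off activated receptors, Grk4 had -0.23 ± 0.068 (-0.28 on the dye-matched baseline), Grk5 -0.12 and Grk6 -0.013.

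Among the tyrosine kinases, Src, the founding member of its family, had 0.24 ± 0.05. It was above zero on each array (0.054, 0.43, 0.12 and 0.36) and had 0.28 ± 0.046 on the dye-matched baseline. Fyn, a relative of Src, had -0.10 ± 0.055, Abl1 -0.11 ± 0.094, and Syk, a kinase of immune receptors, -0.18 ± 0.12. On the dye-matched baseline Fyn had -0.00019 and Syk -0.069. In RNA from whole liver, fewer cells of a type and less RNA per cell cannot be told apart.

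Of the cyclin-dependent kinase symbols, Cdkl3, a little-studied relative of these kinases, stood apart at 0.33 ± 0.11. Its centred values were -0.069, 0.56, 0.058 and 0.75, higher with ANIT in Cy3, and the dye-matched mean was 0.40. Its dye difference was -2.03, and of the 479 genes with a dye difference below the median 4 were called higher and 3 lower. Cdk9, which releases paused RNA polymerase II, had -0.011 ± 0.23, Cdk16 -0.068 and Cdkn3, a phosphatase that acts on these kinases, -0.041. The Stk genes, kinases related to yeast Ste20, lay between -0.0032 for Stk25 and 0.15 for Stk24, with Stk39, which regulates salt transporters, at 0.0087 and Stk10 at 0.0064.

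Of the 64 genes, 28 kept their sign on all 4 baselines, 18 above zero and 10 below. No centring adds 0.15 to every ratio and the Hprt1 and Actb baseline lowers each by 0.071, so this count depends largely on ratio size. The upward shift is the larger, so 18 against 10 is no measure of direction. Camkk1 kept its sign, yet had -0.91 with ANIT in Cy5 and 0.58 with ANIT in Cy3, and Syk had -0.77 and 0.42. The share of all 958 genes was not counted. The 7 kinase genes that stayed at least 0.25 from zero with both the median and the dye-matched baseline were Mapk14, Map2k2, Cdkl3, Prkar2a, Sgk1, Csnk1g3 and Prkab1. Within 0.25 of zero lay 87.5% of kinase genes and 78.1% of all genes on the median baseline. On the dye-matched one these were 85.9% and 79.0%, so kinase genes were no more often outside that range. The share of all genes outside it on both was not counted. Of the 12 families, the cyclic nucleotide kinases (median 0.29, 3 genes) and AMP-activated kinase (median -0.20, 3 genes) had medians that kept their sign on these baselines. The other 10 changed sign on at least 1 of them. With so few genes per family, these medians describe single genes more than families.

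Partners of these kinases were taken from 11 lists, of which 54 genes were measured. The transcription factor STAT3, which Jak2 and Src can phosphorylate, stood highest at 1.25 ± 0.059 and was called higher, and Egr1, a growth factor response gene downstream of ERK, was called higher at 0.71 ± 0.11. Myc, a growth regulator, had 0.49 ± 0.027. The receptor gene Fgfr3 was called lower at -1.67 ± 0.16. These 3 called genes differed between dye orientations. With ANIT in Cy5 and in Cy3, Stat3 had 1.82 and 0.69, Egr1 0.35 and 1.08, and Fgfr3 -1.04 and -2.30. Egr1 was thus below 1.5-fold with ANIT in Cy5. No other partner passed 1.5-fold with the sign rule, so 2 were higher (3.70%, against 3.55% of all genes) and 1 lower (1.85%, against 2.19%).

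Among inhibitors and phosphatases, Pkib, an inhibitor of protein kinase A, had 0.59 ± 0.091. It missed the sign rule because its centred values on arrays 2 and 4 were -0.030 and -0.013, and it had 0.49 on the dye-matched baseline. Ptpn2, a phosphatase that acts on JAK and STAT proteins, had 0.41 ± 0.092, and Dusp1, which inactivates p38 and JNK, 0.14 ± 0.017. Ppp1cb, a catalytic subunit of protein phosphatase 1, had 0.42 ± 0.14, and Ppp2ca, of protein phosphatase 2A, -0.086. Ywhaz, a 14-3-3 protein that binds phosphorylated partners, had 0.42 ± 0.048, or 0.25 on the dye-matched baseline. The centred arrays of Ywhaz split by dye (1.19, -0.40, 1.19 and -0.30). So did those of Ppp1cb (1.07, -0.41, 1.15 and -0.15) and Dusp1 (0.60, -0.34, 0.61 and -0.31). The small SDs of Ywhaz and Dusp1 therefore do not mean even values.

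The other partners named were not called. Of the receptor list, Kdr had -0.25 ± 0.20. Of Ras and Raf partners, Grb2 had -0.17 and Rheb 0.11. In the insulin list Irs1 had 0.049 and Gsk3b -0.041, and in the Stat list Stat5b had -0.14. Among 10 cyclins and cell cycle partners, Ccnd1 (-0.21) and Cdc25b (-0.18) lay farthest from zero. Of calcium and protein kinase C partners, Dgkz had -0.31 and Itpr1 -0.21, and of protein kinase A partners Adcy2 had -0.089.

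Cell type markers were few on this array. All 4 measured hepatocyte genes (Ttr, Apoa1, Apob and Tf) lay below zero, from -0.68 to -0.10 (Apob had 0.051 without centring), and 0 were called, although Apoa1 (-0.67) was called lower on the dye-matched baseline. Single lymphocyte (Lck) and neutrophil (S100a9) genes had -0.19 and 0.038, endothelial genes -0.25 to -0.038, stellate cell genes -0.58 to 0.19 (Col1a1 at -0.59 was called lower on the dye-matched baseline) and the cholangiocyte genes Spp1 and Clu -0.12 and 0.34. No macrophage marker of the list was measured. A ratio gives no level, so the labelled tissue could not be checked by marker abundance, and the part of cell make-up in the kinase ratios was not tested.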

How the data were processed

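Liver RNA pools of 3 ANIT-treated and 3 olive oil-treated rats were compared on 4 two-colour arrays. The authors deposited a log ratio of both channels per probe, read as log2. How background and dyes were treated, the log base and the direction are unstated in the labels. Spot intensities were not analysed here, so dim spots could not be removed. The arrays share 1 pair of pools and count as 1 replicate; their number limits the precision.

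Of 1936 probes, 1432 carried 1 gene symbol, 19 carried several, and the platform table did not list 485. Symbols were updated through Entrez identifiers to RefSeq genes of GRCr8 (1429 probes matched, 3 kept their symbol). Each array was centred on its median, probes of a gene were averaged, then arrays, first those of like dyes. A gene was called at 1.5-fold (or 2-fold) where every centred array had the sign of the mean. The table had 0 missing values. These steps used Python 3.11.15, numpy 2.4.6 and pandas 2.3.3. Simulated data were used to check that large ratios passed the size limit without the sign rule and that unchanged genes were seldom called. Recovery with the sign rule was not a condition of this check.

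Named were called members, the highest and lowest member per family, members with 3 or more probes, and per partner list the 2 largest ratios and called genes; the other members were added as a full account of each family, after their values were seen. The members, lists and the 1.5-fold limit were chosen with earlier results of these data known. Alternatives were other baselines, probe and array averaging, each orientation alone, each array left out, other sign rules, natural logs and other readings of direction.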

Additional observations from a re-analysis of the deposited data

How the results depend on the processing

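Mapk14 was the 1 gene higher and 0 were lower at 1.5-fold without centring, on Hprt1 and Actb, on the dye-matched baseline, with the probe of smallest SD, with the median over arrays, with either other sign rule and on leaving out any single array (1 to 1 higher, 0 to 0 lower). Over all genes the shares higher and lower were 5.22% and 1.57% without centring and 3.24% and 3.34% on Hprt1 and Actb. They were 3.44% and 3.24% dye-matched, 3.44% and 2.71% with the probe of smallest SD, and 3.55% and 2.19% with the median over arrays. The sign of both orientation means gave 3.55% and 2.40%, and no sign rule 4.07% and 2.71%. Leaving out an array gave 3.44% to 3.76% and 2.30% to 2.71%. With ANIT in Cy5 alone 5 kinase genes were higher (1 of them at 2-fold) and 8 lower, among 19.1% and 14.5% of all genes. With ANIT in Cy3 alone 1 was higher, Cdkl3, and 2 lower (1 at 2-fold), among 4.59% and 13.5% of all genes. Natural logs gave 2 higher (1 at 2-fold) and 1 lower, among 5.22% and 3.76%. The turned sign gave 0 higher and 1 lower. The dye ratio gave 1 higher (Csnk1g3, not Mapk14) and 4 lower, among 13.0% and 6.99% of all genes. Single probes gave 1 higher and 2 lower, among 3.35% and 2.65% of all probes. The kinase median was -0.031, and 0.12 without centring, -0.10 on Hprt1 and Actb, 0.0088 dye-matched, -0.058 with single probes per gene, -0.074 with ANIT in Cy5 alone, 0.097 with ANIT in Cy3 alone, and -0.032 to -0.023 with an array left out. The cause was not tested, except that no centring adds 0.15 to every ratio. On the probe of smallest SD, Sgk1 had -0.28, Prkcd -0.23 and Prkcz 0.072. Of 49 named genes, 43 moved by more than their SD with either orientation alone and 14 on the dye-matched baseline. No paired analysis was possible because the arrays share 1 pair of pools. Depth cannot be judged without intensities. A ratio that a change of baseline carries across zero has no settled sign. One that keeps its sign on every baseline can still turn between dye orientations, as Camkk1 did.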
